A study of Mus musculus with 12 samples.

Results

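The 36 genes described here carry glucose into the cell, break it down to lactate, or belong to the response to low oxygen. They were chosen by name, as a list of known members of these pathways, with earlier results of these data known. All 36 were among the 24060 genes measured in 12 rhabdoid tumors of Smarcb1-deficient mice. Every tumor arose in a P0-CreC;Smarcb1 flox/flox mouse on the FVB/N background, in which the myelin protein zero (P0) promoter drives Cre recombinase in early neural crest cells and their descendants and so deletes Smarcb1, a core subunit of the SWI/SNF chromatin remodelling complex. The labels give 4 Retro-orbital tumors, 3 Cheek tumors, 3 Meninges tumors, 1 Vestibular N tumor and 1 Trigeminal N tumor, with no treatment and no age for single animals. All 12 share the deletion, and no tissue with intact Smarcb1 was analysed here, so that every comparison below is between tumors. Tumors were dissected and frozen whole, with no sorting of cells, and Smarcb1 itself was read at 1.70 to 6.31 RPKM, a gene-level value that does not separate a deleted transcript from an intact one in other cells of the tumor.

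RPKM is a read count divided by the length of the transcript and by the mapped reads of the library, so that genes and tumors can be compared. Summed over all genes it came to between 393109 and 444680 in a tumor, and the totals estimated from the steps of the low values ran from 13206168 fragments in Cheek 3 to 57128422 in Retro-orbital 3. These totals are indirect estimates, and the paper reports a narrower spread of sequenced reads per sample. The first part of the tumor identifier is shared by Cheek 2 and Cheek 3, by Cheek 1 and Meninges 1, and by Retro-orbital 3 and Trigeminal N 1, and whether these came from the same animal is not stated. Cheek 2 and Cheek 3 were the most alike of the 66 pairs of tumors, with a median absolute log2 difference of 0.14 over the genes tested, against 0.27 for the next pair, Retro-orbital 4 and Meninges 2. The Cheek group is therefore described with this in view, and p-values treat its 3 tumors as separate samples. In bulk tumors, fewer cells of a type and less RNA per cell cannot be told apart.

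Glycolysis turns glucose into pyruvate in the cytosol, and lactate dehydrogenase then converts pyruvate into lactate when it is not burned in the mitochondria. Most steps can be run by several isozymes, encoded by separate genes and used to different degrees by brain, muscle, blood and tumor cells. When oxygen is short, the prolyl hydroxylases of the Egln family stop marking the hypoxia-inducible factors for destruction, and these factors bind a short DNA element near genes for glucose uptake, glycolysis, pH control and vessel growth. Hif1a itself is regulated mainly through the stability of its protein, which RNA does not show.

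The core of that element is ACGTG, and promoter windows from RefSeq (build GRCm38.p6, from 250 bases before to 50 bases after each start) were searched for it on both strands. The table held 45 promoters for 33 of the 36 members and none for Slc2a3, Epas1 and Ndrg1. ACGTG was found for 21 of the 33 genes (63.6%), against 21.8% of all 27025 genes in the table, and in 53.3% of the members' promoters against 19.6% of all promoters. With the second form of the core, GCGTG, the shares were 80% and 43.8%. The palindrome CACGTG, which holds ACGTG on both strands and is read by other factors too, was present in 13.3% of the members' promoters and in 7.15% of all. Base composition was not compared between the sets, and its part in these shares was not tested. The members were chosen as known genes of glycolysis and the hypoxia response, so these shares are not separate evidence of a link. Stretches of 25 bases are shown for members whose levels are described below, so that the shared letters can be seen, with the core in capitals and each written 5′ to 3′ on the strand that carries it.
Slc2a1: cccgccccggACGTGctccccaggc
Hk2: ccggacagtgACGTGgatgtgctca
Pgk1: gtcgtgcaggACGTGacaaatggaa
Ldha: agcccagcggACGTGcgggaaccca
Egln1: gccgtggtgtACGTGcagcgcgcgc
Egln3: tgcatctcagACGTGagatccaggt
Bnip3: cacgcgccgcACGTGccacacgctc
Ankrd37: gtgtttgggtACGTGaggccgcagc
P4ha1: agccctcgctACGTGcgctctgtca
These windows lie at chr4:119108699-119108723 (plus strand) for Slc2a1, chr6:82774492-82774516 (plus) for Hk2, chrX:106186940-106186964 (plus) for Pgk1 and chr7:46845760-46845784 (minus) for Ldha. They lie at chr8:124949308-124949332 (minus) for Egln1, chr12:54204089-54204113 (minus) for Egln3, chr7:138909599-138909623 (minus) for Bnip3, chr8:45999842-45999866 (minus) for Ankrd37 and chr10:59323270-59323294 (minus) for P4ha1. In Bnip3 the core is part of CACGTG. Such a match is a description of the letters and not a binding site. 

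All 36 members passed the filter on low values, 1 RPKM or more in 3 or more of the Retro-orbital, Cheek and Meninges tumors. The most abundant were the pyruvate kinase gene Pkm (median 444 RPKM of the 12 tumors) and the aldolase gene Aldoa (325 RPKM), and the lowest was the carbonic anhydrase Car9 (0.967 RPKM, and an estimated 21 to 321 fragments per tumor). Across the 12 tumors, the SD of log2(RPKM + 1) had a median of 0.73 over the 36 members, against 0.47 over the 14745 genes that passed the filter. It was 0.49 for the 17 glycolytic enzymes and 0.82 for the 8 hypoxia response genes outside glycolysis and oxygen sensing. The median SD of the enzymes was thus lower than that of the hypoxia response genes, and the heat map of all members shows the single genes.

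**Figure D1:**
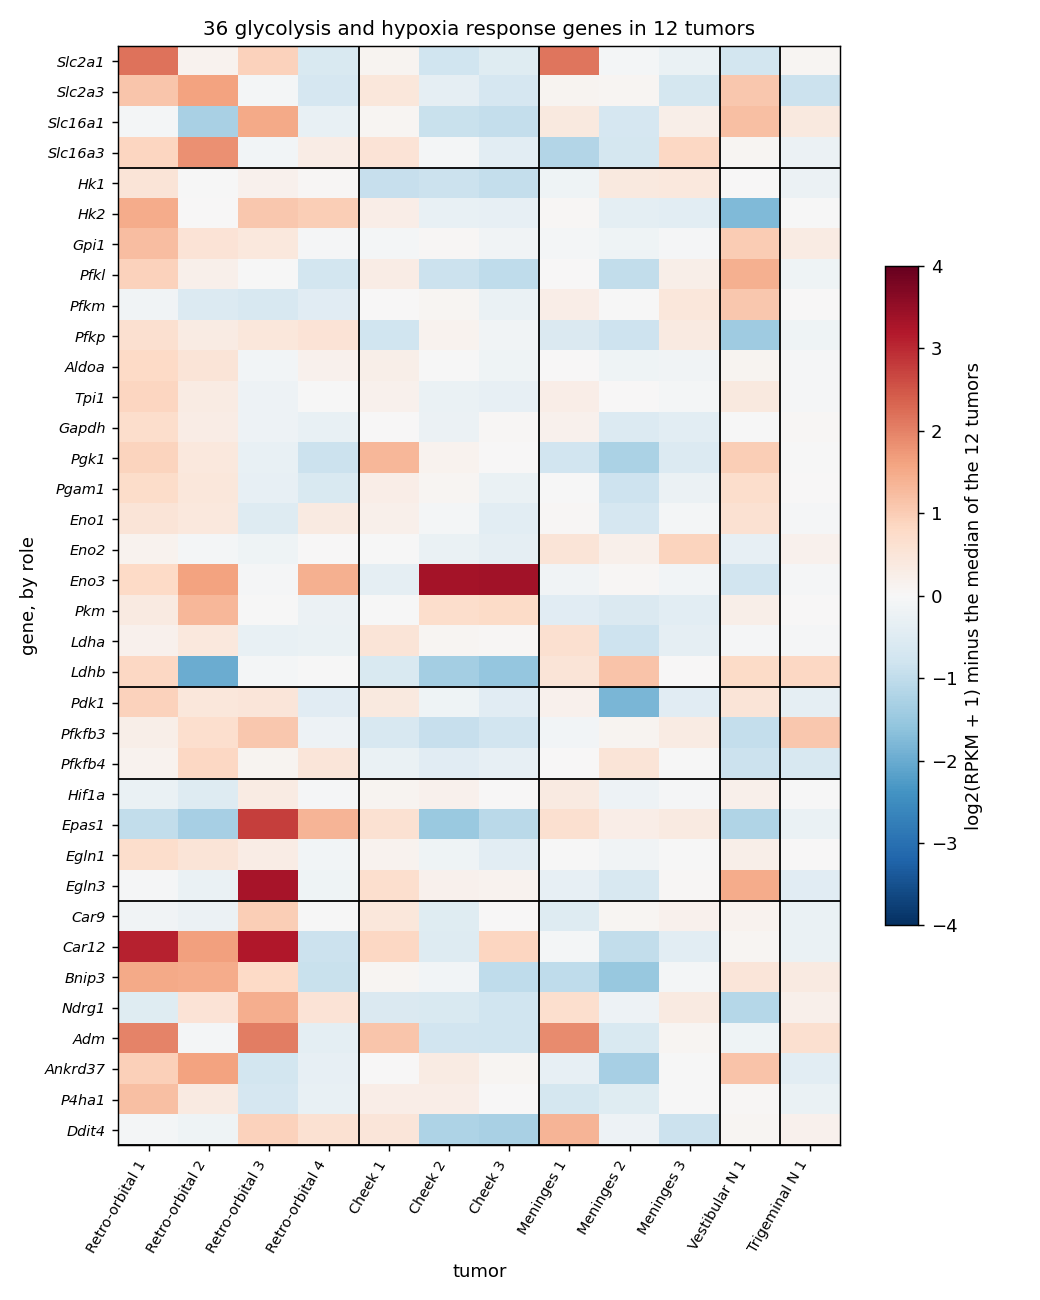
Heat map of the 36 members (rows, by role from top to bottom: transporters, glycolytic enzymes, regulators of flux, oxygen sensing, other hypoxia response genes) in the 12 tumors (columns). Color is log2(RPKM + 1) minus the gene's median of the 12 tumors. Retro-orbital 1 is red over most glycolytic enzymes, Retro-orbital 3 over Epas1, Egln3 and Car12, and Eno3 stands out in Cheek 2 and Cheek 3.

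Glucose enters through facilitative transporters, of which Slc2a1 (Glut1; GRCm38 chr4:119108711-119137983) is the widespread form. Slc2a1 was read at 146, 34.8, 60.5 and 20.5 RPKM in Retro-orbital 1 to 4, at 34.7, 17.9 and 22.6 in Cheek 1 to 3, at 142, 30.0 and 26.1 in Meninges 1 to 3, at 18.7 in Vestibular N and at 33.7 in Trigeminal N. Retro-orbital 1 and Meninges 1 stood far above the other 10 tumors, and the locations overlapped. Slc2a3 (Glut3), the high-affinity form of neurons and leukocytes, ran from 5.33 RPKM in Trigeminal N to 34.1 in Retro-orbital 2. Slc2a1 made up most of the pair's RPKM in 11 of 12 tumors, from 50.5% in Retro-orbital 2 to 92.6% in Meninges 1. The exception was Vestibular N, where its share was 44.8%.

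Lactate leaves or enters cells through the monocarboxylate transporters, with Slc16a1 (Mct1) in most tissues and Slc16a3 (Mct4) in strongly glycolytic cells. Slc16a1 stood at 24.6, 10.0, 75.7 and 20.9 RPKM in Retro-orbital 1 to 4, at 27.4, 13.6 and 12.96 in Cheek 1 to 3, at 34.7, 15.9 and 30.8 in Meninges 1 to 3, at 61.3 in Vestibular N and at 34.0 in Trigeminal N. Retro-orbital 3 and Vestibular N were the highest and Retro-orbital 2 was the lowest. Slc16a3 showed another order, from 2.05 RPKM in Meninges 1 to 23.0 in Retro-orbital 2, and Retro-orbital 2 was the one tumor in which it exceeded Slc16a1, with 69.6% of the pair. Retro-orbital 2 also had the highest summed leukocyte markers (513 RPKM, against 96.5 to 402 in the other tumors), and their part in these values was not tested. Of that list of 6 markers, 5 were measured (Ptprc, Cd68, Csf1r, Aif1 and Itgam), all above 0 in every tumor. Cd68 (244 RPKM), Csf1r (146) and Itgam (72.7) were highest in Retro-orbital 2. Ptprc was highest in Retro-orbital 4 (51.5, against 33.3 in Retro-orbital 2) and Aif1 in Meninges 2 (53.4, against 17.3).

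Hexokinase traps glucose in the cell as glucose 6-phosphate. Hk1 (chr10:62268855-62379908), the constitutive isozyme of brain and red cells, was read at 38.9, 26.9, 30.7 and 28.4 RPKM in Retro-orbital 1 to 4, at 13.8, 14.5 and 13.5 in Cheek 1 to 3, at 23.8, 35.7 and 36.8 in Meninges 1 to 3, at 27.4 in Vestibular N and at 22.8 in Trigeminal N. All 3 Cheek tumors lay below every other tumor of the series. Within the identifier shared by Cheek 1 and Meninges 1, the values were 13.8 and 23.8 RPKM. Hk1 had the smallest adjusted p of the members in the location test: the log2 difference of Cheek from Retro-orbital was -1.09 (SE 0.20, limma adjusted p = 0.16) and that of Meninges from Cheek was 1.12 (SE 0.21, adjusted p = 0.083), neither past 0.05. With the first part of the identifier as a block, Meninges differed from Cheek by 0.80 on the log2 scale (limma adjusted p = 0.00086). This call depends on the block, whose correlation was estimated from 2 pairs of tumors. In that fit, 4243 of the 14745 genes tested passed between Meninges and Cheek.

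Hk2 (chr6:82725025-82774454), the inducible isozyme of muscle, fat and many tumors, stood at 34.8, 12.1, 26.4 and 24.2 RPKM in Retro-orbital 1 to 4, at 14.4, 9.34 and 9.29 in Cheek 1 to 3, at 12.2, 8.78 and 8.60 in Meninges 1 to 3, at 2.81 in Vestibular N and at 11.6 in Trigeminal N. The Retro-orbital mean was 24.4 ± 9.39 RPKM (SD, n = 4), against 11.0 ± 2.92 in Cheek (n = 3) and 9.87 ± 2.05 in Meninges (n = 3), and Retro-orbital 2 fell within the range of the others. Meninges differed from Retro-orbital by -1.15 on the log2 scale (SE 0.33, limma adjusted p = 0.45). Hk1 took the larger share of the pair in 11 of 12 tumors. Its share was 49.0% in Cheek 1, 52.8% to 69.0% in the Retro-orbital tumors, 66.0% to 81.0% in the Meninges tumors and 90.7% in Vestibular N. The exact permutation test of the log2 ratio Hk1/Hk2 between the 3 locations gave p = 0.037 (adjusted over the 11 ratios tested, 0.13).

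Phosphofructokinase commits the sugar to glycolysis, and its liver (Pfkl), muscle (Pfkm) and platelet (Pfkp) subunits assemble into mixed tetramers. Pfkm (chr15:98092589-98132451) was read at 17.5, 13.1, 12.0 and 14.1 RPKM in Retro-orbital 1 to 4, at 19.5, 20.5 and 15.9 in Cheek 1 to 3, at 23.6, 19.4 and 26.8 in Meninges 1 to 3, at 41.8 in Vestibular N and at 19.5 in Trigeminal N. Pfkp (chr13:6579768-6648777) stood at 27.4, 21.8, 23.9 and 25.9 RPKM in Retro-orbital 1 to 4, at 9.5, 19.1 and 15.6 in Cheek 1 to 3, at 11.2, 9.31 and 22.7 in Meninges 1 to 3, at 5.78 in Vestibular N and at 15.2 in Trigeminal N. The 4 Retro-orbital tumors were the only ones in which Pfkp exceeded Pfkm.

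The RPKM ratio of Pfkm to Pfkp was 0.501 to 0.639 in the Retro-orbital tumors, 1.02 to 2.05 in the Cheek tumors and 1.18 to 2.10 in the Meninges tumors, with 7.23 in Vestibular N and 1.28 in Trigeminal N. On the log2 scale, with 1 RPKM added to both genes, the mean was -0.77 ± 0.15 (SD, n = 4) in Retro-orbital, 0.36 ± 0.52 (n = 3) in Cheek and 0.74 ± 0.44 (n = 3) in Meninges. The difference between the 3 locations had an exact permutation p of 0.0043 over all 4200 labellings and an adjusted p of 0.047 over the 11 ratios, the one ratio past 0.05. With 0.1 RPKM added instead, the exact p was 0.0052 and the adjusted p 0.058. Leaving out any 1 tumor other than Cheek 1 or Meninges 3 also took the adjusted p over 0.05, to between 0.079 and 0.11. The Retro-orbital ratios were below all others in the full set, so that leaving out a tumor could not change that order. Neither gene passed alone: Pfkm differed between Meninges and Retro-orbital by 0.68 (SE 0.19, limma adjusted p = 0.44) and Pfkp by -0.83 (SE 0.31, adjusted p = 0.51). In the transcript of Pfkp, 17.1% of the 50-base windows are shared with its neighbour Pitrm1, and none of those of Pfkm are shared with another gene. Pfkl ranged from 13.1 RPKM in Cheek 3 to 75.2 in Vestibular N and was the largest of the 3 subunits in 8 of 12 tumors.

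**Figure D2:**
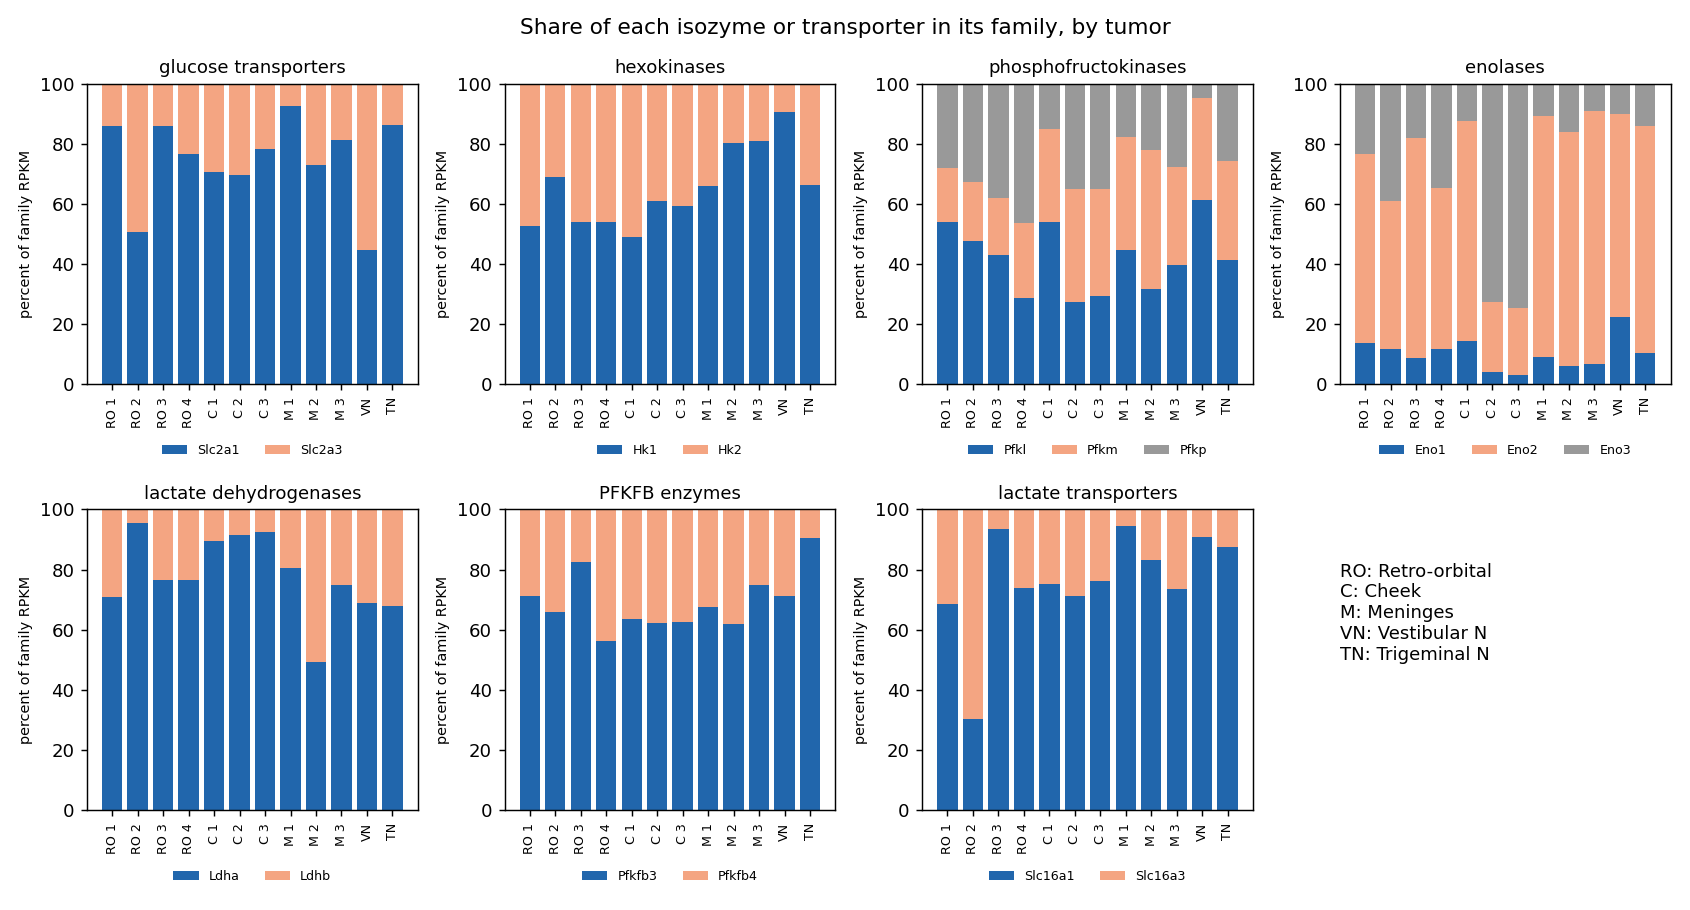
Share (percent of the family's summed RPKM) of each isozyme or transporter in 7 families, 1 bar per tumor. Pfkp takes its smallest share in Vestibular N (4.71%), Eno3 its largest in Cheek 2 and Cheek 3 (72.5% and 74.6%), and Slc16a3 its largest in Retro-orbital 2 (69.6%). The enolase shares rest on an uncertain Eno1 level, since 72.2% of the 50-base windows of its transcript occur in another gene.

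Gpi1, which turns glucose 6-phosphate into fructose 6-phosphate, ran from 118 RPKM in Meninges 2 to 312 in Retro-orbital 1. Aldoa, which splits the hexose, ran from 287 RPKM in Cheek 3 to 570.0 in Retro-orbital 1, and Tpi1, which interconverts the triose phosphates, from 159 to 361 in the same tumors. Gapdh, the oxidising step, ranged from 149.6 RPKM in Meninges 2 to 358 in Retro-orbital 1, and the mutase gene Pgam1 from 16.4 to 51.0 in the same tumors. Retro-orbital 1 was the highest tumor for all 5 of these genes. Pgk1, the first enzyme of the pathway to make ATP, had another order, from 17.4 RPKM in Meninges 2 to 112 in Cheek 1, and Cheek 1 and Meninges 1, which share an identifier, stood at 112 and 25.2 RPKM.

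Enolase has a widespread form (Eno1), a neuronal form (Eno2) and a muscle form (Eno3). Eno2 (chr6:124760053-124769673) was read at 32.2, 27.8, 25.6 and 29.4 RPKM in Retro-orbital 1 to 4, at 29.0, 24.1 and 22.6 in Cheek 1 to 3, at 42.6, 33.5 and 54.9 in Meninges 1 to 3, at 22.9 in Vestibular N and at 33.1 in Trigeminal N. The 3 Meninges tumors lay above every other tumor, by a log2 difference from Cheek of 0.75 (SE 0.20, limma adjusted p = 0.15) and from Retro-orbital of 0.56 (SE 0.19, adjusted p = 0.49). With the identifier block, the difference of Eno2 from Cheek was 0.56 (limma adjusted p = 0.0030), under the limit given for Hk1. After quantile normalization the Meninges range no longer stood clear of the others. Gfap, the astrocyte filament, was 65.1 to 260 RPKM in Meninges, 0.324 to 0.589 in Cheek and 0.309 to 128 in Retro-orbital. Summed astrocyte and oligodendrocyte markers were 119 to 393, 9.82 to 21.6 and 2.98 to 263 RPKM in the same order. Retro-orbital 3, with Gfap at 128 and the highest Aqp4 (121), had Eno2 at 25.6. Summed neuronal markers were 37.2 to 60.1 RPKM in Meninges, 22.2 to 179 in Retro-orbital, and 19.1, 546 and 445 in Cheek 1 to 3. The part of astrocytes or neurons in Eno2 was not tested.

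Eno3 (chr11:70657202-70662513) stood at 12.1, 22.1, 6.26 and 19.1 RPKM in Retro-orbital 1 to 4, at 4.88, 75.4 and 75.7 in Cheek 1 to 3, at 5.80, 6.83 and 5.95 in Meninges 1 to 3, at 3.45 in Vestibular N and at 6.24 in Trigeminal N. Cheek 2 and Cheek 3, with 1 shared identifier, were set apart from the third Cheek tumor, which was among the lowest. By RPKM, Eno3 was the largest of the 3 enolases in those 2 tumors and Eno2 in the other 10. This order depends on the Eno1 value, whose limit is given below. Summed skeletal muscle markers, all 8 measured, were highest in the same 2 tumors, at 590.3 and 307 RPKM, against 6.0 to 284 in the rest. Acta1, the skeletal actin, was 196 and 106 RPKM in Cheek 2 and Cheek 3 and 1.46 in Cheek 1, and the muscle creatine kinase gene Ckm was 24.0, 11.0 and 0.199 RPKM. Other markers of the list had another order: Myh1 was highest in Meninges 3 (154 RPKM, against 77.4 and 26.8 in Cheek 2 and Cheek 3), Myh4 in Vestibular N (27.3, against 2.51 and 1.32) and Tnnt3 in Meninges 1 (165, against 124 and 68.0). The summed neuronal markers, all 6 measured, were also highest there, at 546 and 445 RPKM against 19.1 to 179 elsewhere. The sum was carried by the neurofilament genes Nefl (412 and 335 RPKM) and Nefm (91.7 and 67.6), while in both tumors Syt1 (0.242 and 0.220) was below every other tumor, Rbfox3 was near 0 (0.0623 and 0.0154) and Stmn2 (16.8 and 17.1) was far below Retro-orbital 1 (150.3). Snap25 (25.5 and 25.4) was above its median over all tumors (17.4) and was highest in Trigeminal N (30.9). The part of muscle or nerve cells in Eno3 was not tested. Without Cheek 1, Eno3 had a limma adjusted p of 0.025 in the location test and a log2 difference of 2.40 (SE 0.41) between Cheek and Retro-orbital, which then rests on 2 tumors of 1 identifier.

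Eno1, usually the main enolase of dividing cells, was read at only 7.13, 6.59, 3.01 and 6.42 RPKM in Retro-orbital 1 to 4, at 5.66, 4.44 and 3.24 in Cheek 1 to 3, at 4.85, 2.59 and 4.37 in Meninges 1 to 3, at 7.67 in Vestibular N and at 4.60 in Trigeminal N. The authors kept uniquely mapped reads, and 72.2% of the 50-base windows of its transcript also occur in another gene, with 70.5% found in the near-identical copy Eno1b. Its level relative to Eno2 and Eno3 is therefore uncertain, and the log2 ratio Eno1/Eno2, with an exact permutation p of 0.018 between locations (adjusted 0.097), carries the same limit. The same holds in part for Gapdh, Pgk1, Bnip3 and Pgam1, which share 82.5%, 68.0%, 62.4% and 41.5% of their windows with other genes. For 15 members, among them Hk2, Pfkm, Eno3, Epas1, Egln3, Car12 and Adm, no window was shared.

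**Figure D3:**
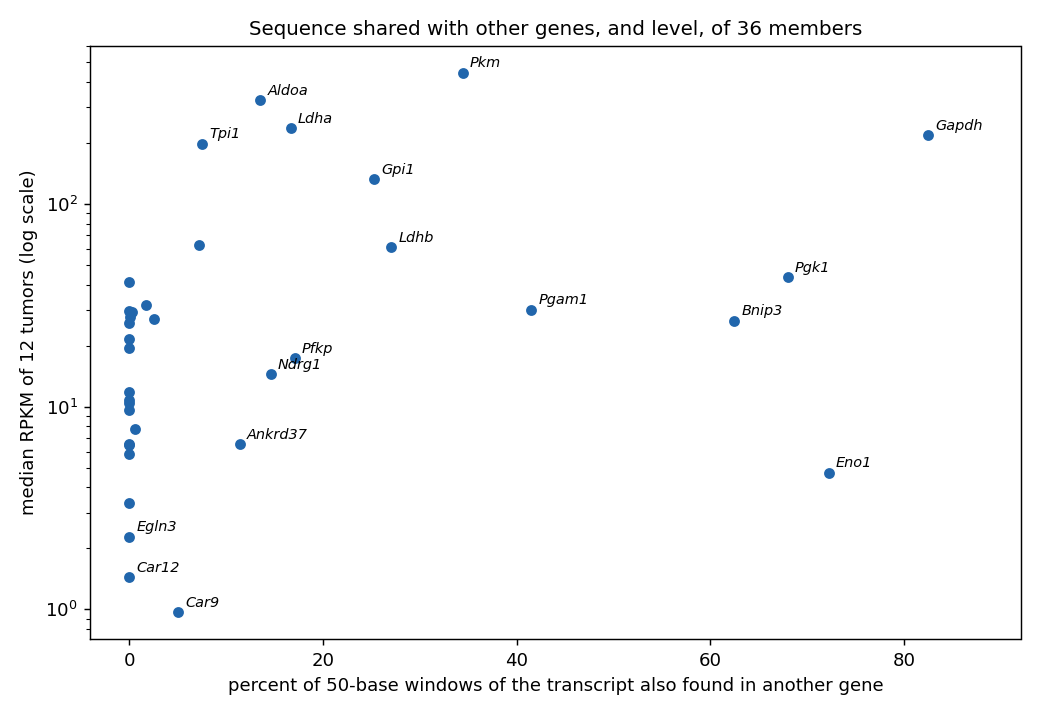
Percent of the 50-base windows of each member's transcript that occur in another gene (x axis) against the member's median RPKM of 12 tumors (y axis, log scale). Gapdh and Eno1 share 82.5% and 72.2% of their windows, and Gapdh is high while Eno1 is low.

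Pkm, the last ATP-making enzyme, ranged from 299.8 RPKM in Meninges 2 to 1108 in Retro-orbital 2. The 3 Meninges tumors had 318 ± 15.7 RPKM (SD, n = 3), below each Retro-orbital tumor (378 to 1108) and each Cheek tumor (440.1 to 753), with a log2 difference from Cheek of -0.97 (SE 0.38, limma adjusted p = 0.26). After quantile normalization the Meninges range met that of the other locations. Pkm has alternative exons that give an adult muscle and brain form and an embryonic and tumor form, and a value per gene does not separate them. Of its windows, 34.4% are shared with other genes.

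Lactate dehydrogenase subunit A favours the making of lactate and subunit B its use. Ldha ranged from 133 RPKM in Meninges 2 to 368 in Meninges 1, and so spanned its whole range within 1 location. Ldhb stood at 108, 14.7, 58.1 and 60.5 RPKM in Retro-orbital 1 to 4, at 39.5, 23.1 and 20.02 in Cheek 1 to 3, at 88.2, 137 and 61.7 in Meninges 1 to 3, at 104 in Vestibular N and at 109 in Trigeminal N. The 3 Cheek tumors and Retro-orbital 2 were the 4 lowest. Meninges differed from Cheek by 1.74 on the log2 scale (SE 0.63, limma adjusted p = 0.23). With the identifier block the difference was 1.21 (limma adjusted p = 0.011), under the limit given for Hk1. Ldha exceeded Ldhb in 11 of 12 tumors, by a ratio of 21.6 in Retro-orbital 2 and of 2.12 in Trigeminal N, while in Meninges 2 the ratio was 0.971. The test of this ratio between locations gave an exact permutation p of 0.15.

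Summed over the 17 glycolytic enzymes, the members took 0.651% of all RPKM in Retro-orbital 1 and 0.713% in Retro-orbital 2, against 0.426% and 0.434% in Retro-orbital 3 and 4. The shares were 0.472% to 0.497% in Cheek, 0.366% to 0.460% in Meninges, 0.515% in Vestibular N and 0.456% in Trigeminal N. The spread among the Retro-orbital tumors was therefore wider than the distance between locations.

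The regulators of flux set the speed of phosphofructokinase and the entry of pyruvate into mitochondria. Pfkfb3 makes fructose 2,6-bisphosphate, the strongest activator of phosphofructokinase. It stood at 9.31, 13.01, 17.5 and 6.66 RPKM in Retro-orbital 1 to 4, at 4.57, 3.64 and 4.13 in Cheek 1 to 3, at 7.06, 8.54 and 9.96 in Meninges 1 to 3, at 3.53 in Vestibular N and at 17.4 in Trigeminal N. The Cheek tumors lay below all Retro-orbital and Meninges tumors, with a log2 difference from Retro-orbital of -1.23 (SE 0.29, limma adjusted p = 0.21). Between Meninges and Cheek, Pfkfb3 differed by 0.89 (limma adjusted p = 0.23). With the identifier block the difference was 0.58 (limma adjusted p = 0.020), under the limit given for Hk1. Its relative Pfkfb4 was lower than Pfkfb3 in all 12 tumors and ranged from 1.42 RPKM in Vestibular N to 6.70 in Retro-orbital 2. Pdk1, which shuts pyruvate dehydrogenase, ran from 2.25 RPKM in Meninges 2 to 21.1 in Retro-orbital 1.

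Among the oxygen sensors and their targets, Hif1a was the most even member, at 43.5 RPKM in Retro-orbital 2 to 80.5 in Meninges 1 (SD of log2 values 0.25). Epas1 (Hif2a), best known from endothelium and from cells that make erythropoietin, was far from even, at 4.29, 3.18, 69.7 and 25.8 RPKM in Retro-orbital 1 to 4, at 15.2, 2.78 and 3.96 in Cheek 1 to 3, at 15.5, 11.6 and 12.6 in Meninges 1 to 3, at 3.52 in Vestibular N and at 7.75 in Trigeminal N. Hif1a was above Epas1 in all 12 tumors, by a ratio of 1.12 in Retro-orbital 3 and of 25.6 in Cheek 2. Summed endothelial markers, all 5 measured, were 70.5 RPKM in Retro-orbital 3 and reached 74.1 in Meninges 2, where Epas1 was 11.6 RPKM. By single marker, Pecam1 (29.6 RPKM) and Cdh5 (19.9) were highest in Retro-orbital 3. Cldn5 was highest in Meninges 1 (30.4), and Kdr (11.2) and Tek (5.54) in Meninges 2. The part of endothelium in Epas1 was not tested.

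Egln1 (Phd2), the main hydroxylase that acts on Hif1a, ranged from 16.0 RPKM in Cheek 3 to 35.9 in Retro-orbital 1. Egln3 (Phd3; chr12:54178981-54203860), a hydroxylase that is itself induced by low oxygen, was read at 2.15, 1.75, 31.0 and 1.89 RPKM in Retro-orbital 1 to 4, at 4.21, 2.71 and 2.63 in Cheek 1 to 3, at 1.62, 1.11 and 2.41 in Meninges 1 to 3, at 8.13 in Vestibular N and at 1.41 in Trigeminal N. Retro-orbital 3 stood 3.81-fold above the next tumor and was the one tumor in which Egln3 exceeded Egln1. Trigeminal N, which shares its identifier, was among the lowest.

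The remaining hypoxia response genes did not share 1 order of tumors. Car12 (chr9:66713686-66766845), a carbonic anhydrase that acts on the outer face of the cell, stood at 19.7, 6.59, 21.7 and 0.346 RPKM in Retro-orbital 1 to 4, at 3.34, 0.709 and 3.46 in Cheek 1 to 3, at 1.32, 0.235 and 0.801 in Meninges 1 to 3, at 1.56 in Vestibular N and at 1.02 in Trigeminal N. It had the widest spread of the 36 members, 92.1-fold from Meninges 2 to Retro-orbital 3. Its relative Car9, often used as a tissue sign of hypoxia, was low throughout, from 0.390 RPKM in Meninges 1 to 2.87 in Retro-orbital 3. Summed epithelial markers, all 5 measured, were highest in Retro-orbital 3 at 692 RPKM, with 648 in Vestibular N, and their part in Car12 and Egln3 was not tested. By single marker, Krt8 (129 RPKM) and Cdh1 (84.9) were highest in Retro-orbital 3. Epcam was highest in Vestibular N (551, against 171 in Retro-orbital 3), Krt18 in Cheek 2 (408, against 221) and Krt5 in Meninges 1 (173, against 87.0).

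Adm, which encodes the vessel-widening peptide adrenomedullin, was read at 28.3, 6.08, 29.9 and 4.72 RPKM in Retro-orbital 1 to 4, at 15.1, 3.40 and 3.29 in Cheek 1 to 3, at 26.7, 3.94 and 6.92 in Meninges 1 to 3, at 5.61 in Vestibular N and at 10.6 in Trigeminal N. Retro-orbital 1, Retro-orbital 3 and Meninges 1 were the 3 highest tumors for Adm, as they were for Slc2a1. Bnip3, which marks mitochondria for removal, stood at 77.1, 76.1, 47.0 and 13.9 RPKM in Retro-orbital 1 to 4, at 28.2, 24.8 and 12.7 in Cheek 1 to 3, at 12.7, 8.66 and 25.02 in Meninges 1 to 3, at 37.7 in Vestibular N and at 34.5 in Trigeminal N. Meninges 1 was thus high for Adm and Slc2a1 and low for Bnip3.

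Ankrd37, a small ankyrin repeat protein gene known as a direct target of Hif1a, stood at 13.4, 22.1, 3.49 and 5.04 RPKM in Retro-orbital 1 to 4, at 6.56, 8.51 and 6.95 in Cheek 1 to 3, at 5.03, 1.98 and 6.46 in Meninges 1 to 3, at 15.4 in Vestibular N and at 4.60 in Trigeminal N. Retro-orbital 3, the highest tumor for Egln3, was the second lowest for Ankrd37. P4ha1, the collagen prolyl hydroxylase, ranged from 24.8 RPKM in Meninges 1 to 95.7 in Retro-orbital 1. Ndrg1, a stress gene also of myelinating cells, was read at 9.84, 21.2, 41.2 and 21.1 RPKM in Retro-orbital 1 to 4, at 9.17, 9.07 and 7.76 in Cheek 1 to 3, at 23.1, 12.1 and 18.7 in Meninges 1 to 3, at 5.98 in Vestibular N and at 16.8 in Trigeminal N. The Cheek tumors were again below all Retro-orbital and Meninges tumors, with a log2 difference from Retro-orbital of -1.17 (SE 0.40, limma adjusted p = 0.32). Between Meninges and Cheek, Ndrg1 differed by 0.93 (limma adjusted p = 0.31). With the identifier block the difference was 1.20 (limma adjusted p = 0.0023), under the limit given for Hk1. Ddit4 (Redd1), which restrains mTOR under stress, stood at 28.2, 26.4, 56.6 and 46.0 RPKM in Retro-orbital 1 to 4, at 42.2, 12.1 and 11.4 in Cheek 1 to 3, at 77.8, 25.4 and 15.8 in Meninges 1 to 3, at 31.2 in Vestibular N and at 33.9 in Trigeminal N. Cheek 2 and Cheek 3 were the lowest tumors for Ddit4 and Cheek 1 was not.

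The members were unevenly spread over the tumors by where they were highest. Retro-orbital 1 held the highest value of 13 of the 36 members, against 6.65% of all genes tested, and 8 of these were glycolytic enzymes (Hk1, Hk2, Gpi1, Pfkp, Aldoa, Tpi1, Gapdh and Pgam1). The other 5 were Slc2a1, Pdk1, Egln1, Bnip3 and P4ha1. Retro-orbital 3 held 8 members (11.2% of all genes), none of them a glycolytic enzyme: Pfkfb3, Slc16a1, Epas1, Egln3, Car9, Car12, Ndrg1 and Adm. Retro-orbital 2 held 5 (7.01%), namely Slc2a3, Pkm, Pfkfb4, Slc16a3 and Ankrd37. Vestibular N held 20.1% of all genes tested and 3 members, Pfkl, Pfkm and Eno1. Meninges 1 held 3 (10.4%), Ldha, Hif1a and Ddit4. Cheek 1 (8.12% of all genes), Cheek 3 (3.95%), Meninges 2 (7.6%) and Meninges 3 (5.7%) held 1 member each, Pgk1, Eno3, Ldhb and Eno2 in that order. Retro-orbital 4 (8.78%), Cheek 2 (5.34%) and Trigeminal N (5.19%) held 0. Scaled to TPM (RPKM divided by its sum over all genes), the counts for Retro-orbital 1, 3 and 2 were 9, 8 and 6, and after quantile normalization they were 11, 7 and 6. Both scalings were chosen after the data were seen. The lowest value of 12 members was in Meninges 2, against 3.36% of all genes, and that of 8 members in Cheek 3, against 9.92%.

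**Figure D4:**
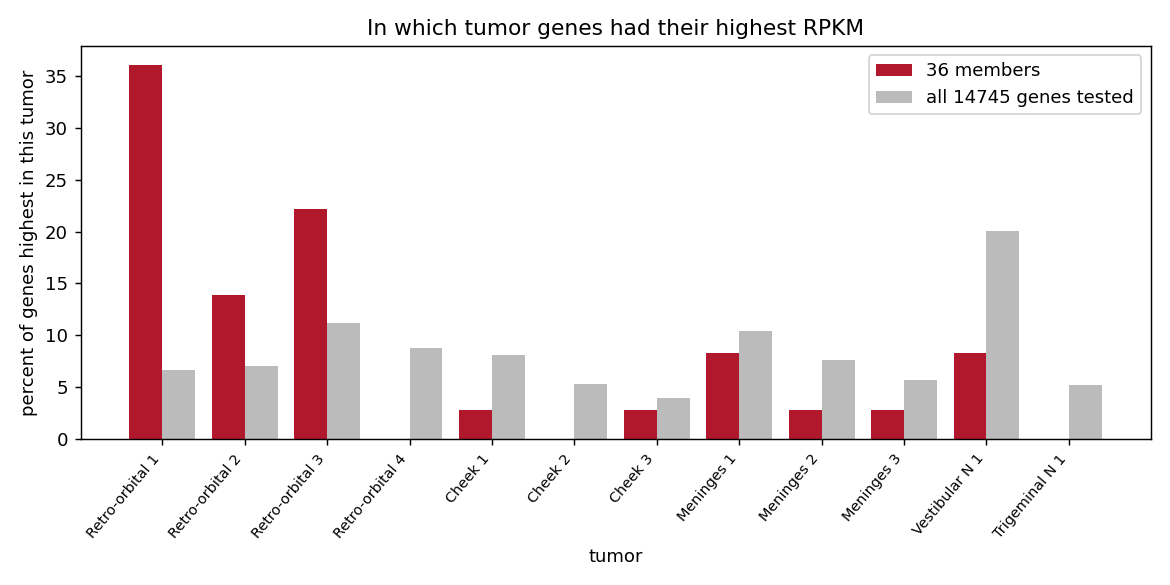
Percent of the 36 members (red bars) and of all 14745 genes tested (grey bars) whose highest RPKM was in each tumor (x axis). Retro-orbital 1 held 13 members and 6.65% of all genes, and Vestibular N 3 members and 20.1% of all genes.

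The last question was whether location sets the level of the members. In the limma F test over the 10 tumors of the 3 locations, 0 of 36 members had an adjusted p under 0.05, against 0.0407% of all genes tested (6 genes). At an unadjusted p under 0.05 there were 7 members, Hk1, Hk2, Pfkm, Pfkp, Eno2, Pfkfb3 and Ndrg1, or 19.4% of the 36, against 14.3% of all genes. Taking the first part of the identifier as a block, 10 of the 36 members and 2802 of the 14745 genes tested passed the adjusted threshold. The members were Hk1, Hk2, Eno2, Pfkfb3, Ndrg1, Pgk1, Slc2a1, Ldhb, P4ha1 and Slc16a3. The correlation within identifiers was estimated at 0.93 from 2 pairs only, and for Cheek and Meninges the contrast then rests largely on Cheek 1 and Meninges 1. Leaving out Cheek 1 without the block gave 198 genes and 1 member, Eno3.

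**Figure D5:**
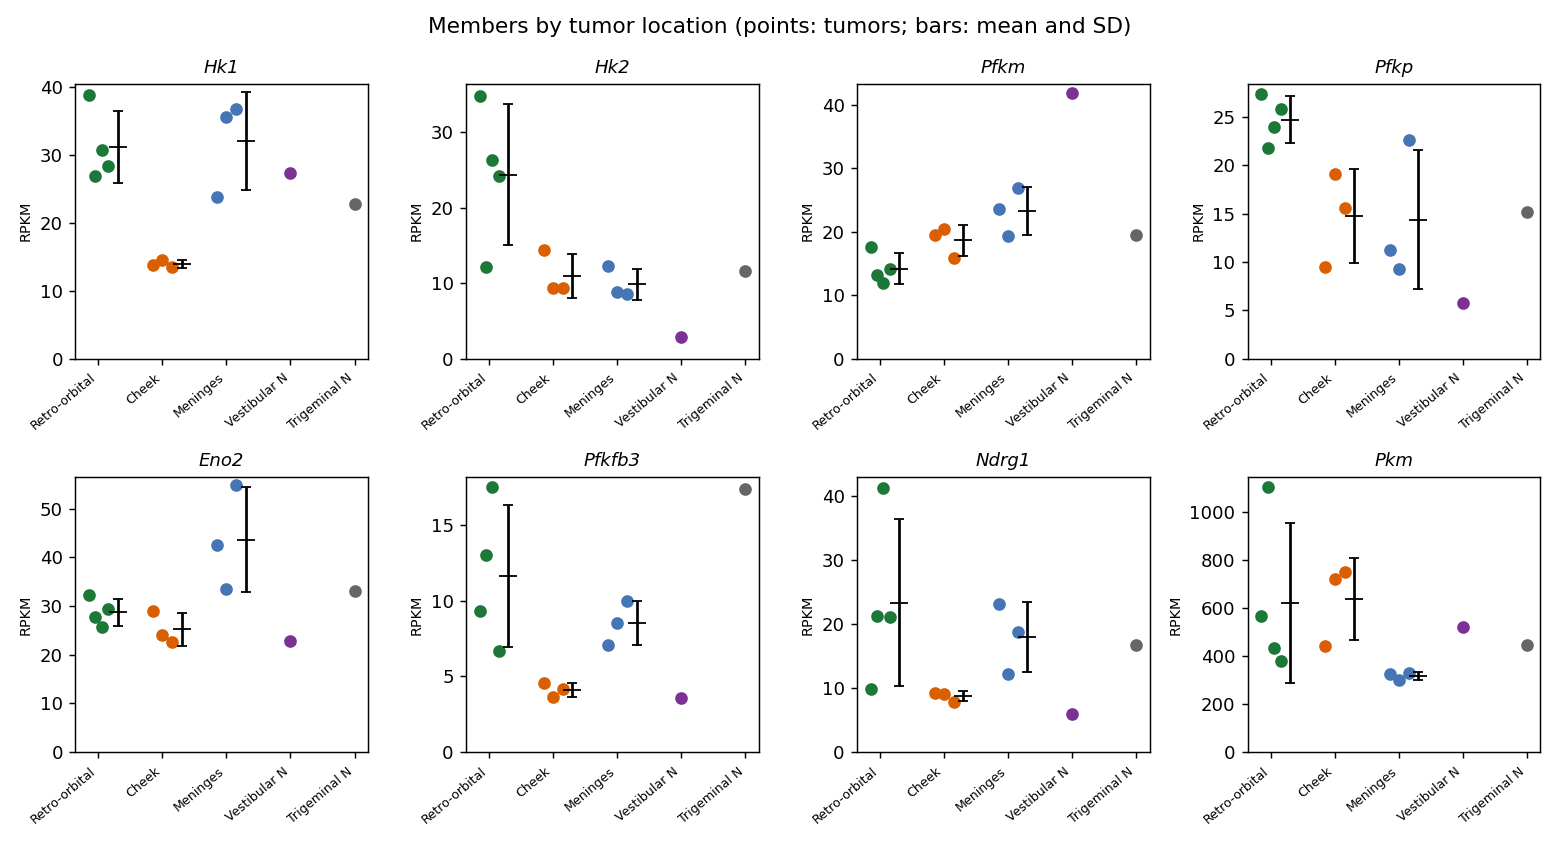
RPKM of 8 members in each tumor (points) by location, with the mean and SD as a bar where there are several tumors (Retro-orbital n = 4, Cheek n = 3, Meninges n = 3). Hk1, Pfkfb3 and Ndrg1 are lower in the Cheek tumors than in the Retro-orbital and Meninges tumors, Eno2 is higher and Pkm lower in the Meninges tumors than in the Retro-orbital and Cheek tumors; for Eno2 and Pkm the ranges met after quantile normalization.

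By range, 4 members were lower in all Cheek tumors than in every Retro-orbital and Meninges tumor (Hk1, Pfkfb3, Pfkfb4 and Ndrg1), against 3.40% of all genes. This held for Hk1, Pfkfb3 and Ndrg1 after quantile normalization and not for Pfkfb4. Only Eno2 was above both other locations in Meninges (3.13% of all genes) and only Pkm below (1.03%). None of the 36 was above (0.631%) or below (0.8%) both other locations in Retro-orbital, and none was above them in Cheek (2.56%).

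Between Meninges and Retro-orbital, 30 of 36 members had a negative log2 difference, against 36.2% of all genes tested. The median was -0.42 over the members and 0.13 over all genes tested. At an unadjusted p under 0.05, 6 members were lower (2.54% of all genes), namely Hk2, Gpi1, Pfkp, Pkm, Car12 and Bnip3, and 2 were higher (6.61%), Pfkm and Eno2. Between Cheek and Retro-orbital, 29 of 36 were negative, against 51.4% of all genes, with medians of -0.52 and -0.02. At the same unadjusted level, 8 were lower (6.45% of all genes) and 0 higher (5.52%). The 8 were Hk1, Hk2, Gpi1, Pfkp, Pfkfb3, Pfkfb4, Egln1 and Ndrg1. Both comparisons use the same 4 Retro-orbital tumors. Leaving out any 1 tumor kept between 25 and 32 members negative in the first and between 27 and 31 in the second. The shares of all genes negative were then 34.9% to 39.9% and 47.2% to 58.4%. Between Meninges and Cheek, 20 of 36 were negative, against 38.1% of all genes, with medians of -0.07 and 0.16. At the same unadjusted level, 4 were higher (11.6% of all genes: Hk1, Eno2, Ldhb and Pfkfb3) and 3 lower (5.37%: Pgk1, Eno3 and Pkm). At an adjusted p under 0.05, no member passed in any of the 3 contrasts, against 0.0203%, 0.0271% and 0.0475% of all genes. With the identifier block, 11 of the 36 members passed between Meninges and Cheek, and 4243 of the 14745 genes tested. The share of members was thus near that of all genes. The 11 were Hk1, Eno2, Pfkfb3, Ndrg1, Pgk1, Slc2a1, Ldhb, P4ha1, Slc16a3, Car9 and Ddit4. Quantile normalization moved the median of all genes to 0.01, 0.03 and -0.02, and the members' counts of negative differences to 32, 29 and 18. The shares of all genes negative were then 49.5%, 47.4% and 52.0%.

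The lists of other glycolysis and other hypoxia genes place the members among the rest of their pathways. Of 18 other glycolysis genes, 13 were tested and 0 had an adjusted p under 0.05 in the location test, with 2 at an unadjusted p under 0.05 (Aldoc and Pdk2), where 14.3% of all genes are called. All 22 other hypoxia genes were tested, with 0 and 5 (Bnip3l, Ero1l, Angptl4, Cited2 and Hmox1) against the same 14.3%. Vegfa, the main vessel growth factor of the response, was 218 RPKM in Retro-orbital 1 and 14.2 to 28.4 in the other 11 tumors, and Retro-orbital 1 held the highest value of 9 of these 22 genes, against 6.65% of all genes tested. Aldoc, the brain aldolase, was 50.8 RPKM in Retro-orbital 3, 62.3, 18.0 and 53.6 in Meninges 1 to 3, 45.8 in Vestibular N and 0.311 to 19.1 in the other 7 tumors. Gfap was 128 RPKM in Retro-orbital 3 and 228, 65.1 and 260 in Meninges 1 to 3. It was 26.3 RPKM in Vestibular N, 81.5 in Trigeminal N, where Aldoc was 19.1, and 0.309 to 13.3 in the remaining tumors. The part of Gfap-expressing cells in Aldoc was not tested. Pgam2, the muscle mutase, ranged from 0.806 RPKM in Meninges 3 to 7.95 in Cheek 2. Hk3, the hexokinase of leukocytes, ranged from 0.969 RPKM in Vestibular N to 9.07 in Retro-orbital 2. That tumor had the highest summed leukocyte markers, though not the highest Ptprc or Aif1, and their part in Hk3 was not tested.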

How the data were processed

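RNA of 12 whole tumors was sequenced after removal of ribosomal RNA, in 1 pool of stranded libraries. The authors aligned the reads to mm10 with STAR, used HTSeq to count uniquely mapped fragments over RefSeq genes, and deposited 1 table of RPKM values for each tumor. The gene length and total they divided by are not given in the sources used here. Unique mapping lowers genes with near-identical copies.

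Here log2(RPKM + 1), which understates changes of low genes, was tested for 14745 of 24060 genes with limma 3.58.1 in R 4.3.3 (trended and robust prior variance, 3 locations, two-sided contrasts, Benjamini-Hochberg adjustment over all genes). Isozyme ratios were tested by exact permutation of their between-location sum of squares, which has no side. The scripts were tested on simulated data. Vestibular N and Trigeminal N, with 1 tumor each, entered no test. Tumors were numbered in accession order. Depth was estimated from the steps of low RPKM values; since only 43.9% to 53.7% of the values checked came out whole (within 0.02 fragments), no count test was run. In 27 rows a date stands in place of a symbol. Shared sequence was searched in GENCODE M21 transcripts (GRCm38).

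The members and gene lists were chosen with earlier results of these data known. Values in every tumor are given for the 12 members with the widest spread, those with an unadjusted p under 0.05 in the location test, and those of a ratio with an unadjusted exact p under 0.05. Alternatives were another pseudocount, no filter, quantile normalization, a constant prior variance, the identifier as a block, ranks for the ratios and leaving out each tumor.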

Additional observations from a re-analysis of the deposited data

Results flagged for a closer look

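Among the 4 Retro-orbital tumors, 47 values (36 members and 11 ratios) were screened for a tumor whose gap to its nearest neighbour took an unusual share of the whole range (Dixon's test), and 5 passed where chance alone gives about 2.35. Gaps and ranges were taken on the log2 scale with 1 RPKM added, so that they do not follow directly from the RPKM values given here. Whether each flag also holds on the RPKM scale was not tested. Egln3 was 31.0 RPKM in Retro-orbital 3 and 1.75 to 2.15 in the other 3, a gap of 0.945 of the range on the log2 scale. Eno1 was 3.01 RPKM in Retro-orbital 3 and 6.42 to 7.13 in the others (0.870), and the ratio Eno1/Eno2 was lowest in the same tumor, at 0.118 (0.865). Both values carry the limit that most of the Eno1 transcript is shared with another gene. The ratio Hk1/Hk2 was 2.22 in Retro-orbital 2 and 1.12 to 1.17 in the others (0.933). The ratio Ldha/Ldhb was 21.6 in Retro-orbital 2 and 2.44 to 3.27 in the others (0.864). Retro-orbital 3 had 3 of the 5 and Retro-orbital 2 had 2.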

How the results depend on the processing

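The genes past an adjusted p of 0.05 were few and their number moved with most choices, while no member passed in any contrast or in the location test under another pseudocount, no filter, quantile normalization or a constant prior variance. In the location test the count of 6 genes became 10 with no filter, 19 with a constant prior variance and 2802 with the identifier as a block. For Meninges against Cheek the count of 7 became 2 with 0.1 RPKM added, 18 with no filter, 13 after quantile normalization, 22 with a constant prior variance and 4243 with the block. For Meninges against Retro-orbital the count of 3 became 7 with no filter and 6 with a constant prior variance, and for Cheek against Retro-orbital the count of 4 became 2 with no filter and 2 with the block. With the block, members past the threshold numbered 10 in the location test (14 at an unadjusted p) and 11 for Meninges against Cheek, and the cause was not tested. The member counts at an unadjusted p, with the block and with 1 tumor left out, are given without the share of all genes and are not read further. Leaving out 1 tumor at a time gave 0 to 198 genes and 0 to 1 members in the location test (6 to 11 members at an unadjusted p), 0 to 41 genes for Meninges against Retro-orbital, 0 to 147 genes and 0 to 1 members for Cheek against Retro-orbital, and 0 to 527 genes and 0 to 2 members for Meninges against Cheek. The highest counts at an adjusted p came without Cheek 1, except for Meninges against Retro-orbital, where it was without Retro-orbital 3; the 11 members at an unadjusted p came without Retro-orbital 4, and the members called without Cheek 1 were Eno3 and, for Meninges against Cheek, Eno3 and Hk1 (adjusted p = 0.044). Without Cheek 2 or without Cheek 3 no gene passed anywhere. The exact p of Pfkm/Pfkp was 0.0052 with 0.1 RPKM added and 0.0016 to 0.021 when 1 tumor was left out, and that of Eno1/Eno2 0.0036 to 0.043, past the adjusted threshold only without Retro-orbital 3 (0.039). No result named here changed sign past its threshold. The labels give no replicate numbers, so that the identifier was the only block that could be fitted. Estimated counts of 21 to 321 fragments limit the precision of Car9 most.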
